A study of Mus musculus with 32 samples.

Results

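Oligodendrocyte progenitor cells (OPCs) of adult and neonatal mice were compared while both were held under A-196, an inhibitor of the H4K20 methyltransferases SUV420H1 and SUV420H2. The comparison rested on 9 of the 32 libraries of the series, chosen by their labels alone: 4 libraries of adult cells from mice at postnatal day 60 and 5 of neonatal cells from mice at postnatal day 5, all given 5 µM A-196 for 48 h. All cells came from the cortex of wild-type C57BL/6 mice, were selected with the O4 antibody and were grown with PDGF-AA and bFGF. Age was thus the labelled difference, and donor age, isolation and time in culture before treatment cannot be told apart. The matching vehicle groups, used below only to set the age difference beside that without inhibitor, were 4 adult and 5 neonatal libraries given 0.02% DMSO for 48 h. Counts are also given for the age difference in cultures treated for 48 h with 5 µM garcinol and 0.2 µM NU-9056, a pair of acetyltransferase inhibitors (KATi), and in untreated cultures.

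OPCs are the dividing glial cells that generate oligodendrocytes, which wrap axons in myelin. They depend on the PDGF receptor alpha for proliferation, and with age they are known to divide and differentiate more slowly. Methylation of lysine 20 of histone H4 is built in steps: KMT5A places the first methyl group, and KMT5B and KMT5C, also called SUV420H1 and SUV420H2, add the further ones, forms that bind the repair protein 53BP1 and mark constitutive heterochromatin. A-196 acts on the activity of the latter enzymes, so the RNA level of its targets is no check of the drug.

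The 4 adult libraries held 31.8 to 35.6 M counts and the 5 neonatal libraries 25.6 to 38.3 M. Levels are given in CPM, counts scaled to a common library size. On the first principal component of the 9 libraries, which took 39.4% of the variance, the adult libraries lay between -64.05 and -27.34 and the neonatal ones between 12.21 and 69.07. Some libraries stood apart, and their values are given beside the results they touch. Adult replicate 1 had raised levels of genes along the whole of chromosome 1. Neonatal replicate 3 had higher levels of genes with short transcripts and lower levels of genes with long ones. Adult replicates 3 and 4 held 163 and 261 CPM of Mbp, the myelin basic protein gene, while adult replicates 1 and 2 held 8.51 and 13 CPM, within the neonatal range of 4.85 to 19.1 CPM.

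Markers of other cell types were checked first, because bulk RNA cannot tell fewer cells of a type from less RNA per cell. Of the microglial markers, Aif1 and Tmem119 did not pass the filter on low counts and P2ry12 reached at most 0.61 CPM, and 12 of the 18 listed microglial and macrophage genes did not pass the filter. The endothelial marker Cldn5 and the fibroblast marker Dcn did not pass either, and Pecam1 reached at most 0.668 CPM. The fibroblast marker Col1a1 did pass, at 0.589 to 1.43 CPM in adult and 0.543 to 2.13 CPM in neonatal libraries. The tested pericyte, fibroblast and leptomeningeal genes summed to 1160 to 1590 CPM in adult and 1460 to 1590 CPM in neonatal libraries. The astrocyte markers Aldh1l1 and Aqp4 were abundant at both ages. Aldh1l1 stood at 316 to 793 CPM in adult against 107 to 343 CPM in neonatal libraries, and Aqp4 at 31.4 to 193 and 13.6 to 39.3 CPM. A further astrocyte marker, Gfap, was low in neonatal libraries, at 1.29 to 6.3 CPM, and at 16.8 CPM or more in adult ones. The O4 selection is meant to remove most astrocytes, and the part of such cells in the results was not tested.

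Most listed S phase, G2 and M phase and cholesterol synthesis genes were lower in adult cells (34 of 46, 34 of 55 and 19 of 30), while 15 of 20 astrocyte genes and 15 of 30 interferon response genes were higher. Under A-196, 5560 of 20259 tested genes passed the threshold (27.4%, adjusted p below 0.05 in edgeR's quasi-likelihood test, here called genes), 2571 higher (12.7%) and 2989 lower (14.8%) in adult cells. The higher genes moved further: their median log2 fold change was 0.85, with 1063 over 2-fold and 267 over 4-fold, against a median of -0.52 among the lower genes, of which 252 were over 2-fold and 33 over 4-fold. The median over all genes was 0.03. Genes whose adult and neonatal libraries did not overlap made up 22.7% of those tested, 2119 with adult higher and 2471 with adult lower. Without adult replicate 3 the count of called genes was 3279, and without both adult replicates 3 and 4 it was 733. In that last fit 1 of 46 S phase, 4 of 55 G2 and M phase and 10 of 30 cholesterol synthesis genes were called lower. Called higher were 3 of 20 astrocyte and 3 of 29 interferon response genes. The medians of these lists kept their signs, at -0.588, -0.575, -0.435, 0.746 and 0.699 in that order.

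**Figure D1:**
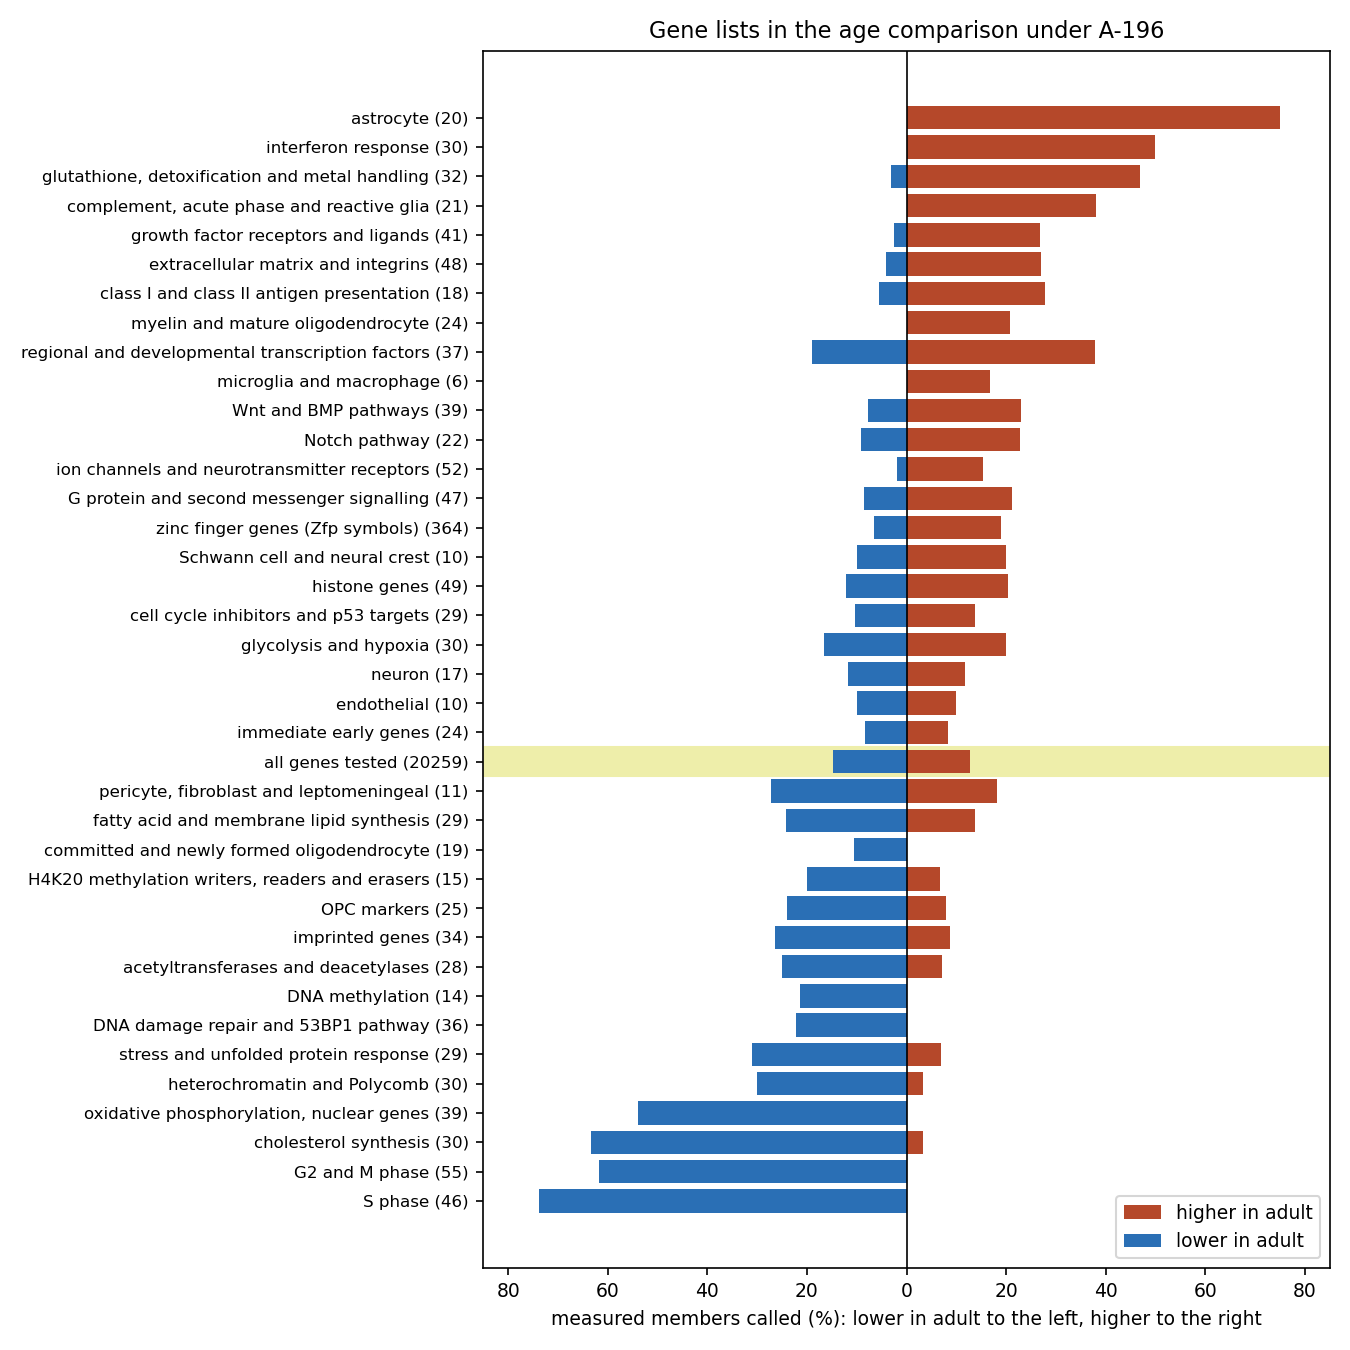
Share of the measured members of each gene list that was called higher (right, red) or lower (left, blue) in adult than in neonatal cells under A-196, in percent, with the number tested in parentheses and all 20259 tested genes in the shaded row. Astrocyte and interferon genes (15 of 20 and 15 of 30 higher) lie at the top, and S phase genes (34 of 46 lower) at the bottom.

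Among called genes of at least 2 in average log2 CPM and without overlap between the ages, the largest rise was that of Gfap, which encodes a cytoskeletal filament of astrocytes (chromosome 11, 102887336 to 102900912, GRCm38). Gfap stood at 16.8, 17.3, 212 and 78.4 CPM in adult replicates 1 to 4 and at 1.29, 5.2, 4.74, 6.3 and 4.65 CPM in neonatal replicates 1 to 5. All adult libraries lay above all neonatal ones, with replicates 3 and 4 far above the other adult cultures. The log2 fold change was 4.2 ± 0.81 (SE, adjusted p = 0.000669). Sp9, a zinc finger transcription factor gene of ventral forebrain lineages (chromosome 2, 73271925 to 73284706), stood at 11.4, 5.7, 16 and 11.5 CPM in adult against 0.901, 2.75, 0.604, 0.667 and 1.22 CPM in neonatal libraries. Its rise was thus present in each adult library, and its log2 fold change was 3.2 ± 0.44 (adjusted p = 7.18e-05).

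Others of the 12 largest rises had varied roles. The complement gene C4b changed by 3.12 ± 0.57, the angiotensinogen gene Agt by 2.93 ± 0.39 and the ceruloplasmin gene Cp, for a copper carrier, by 2.64 ± 0.48. Sulf1, which encodes a heparan sulfate endosulfatase, changed by 2.62 ± 0.47, the matrix protease gene Adamts12 by 2.51 ± 0.51 and the basement membrane gene Frem2 by 2.39 ± 0.31. The MHC class I-like gene Mr1 changed by 2.32 ± 0.34, the guanylate-binding protein gene Gbp9 by 2.36 ± 0.57 and Fndc3c1, a fibronectin type III domain gene, by 2.46 ± 0.71. Sulf1 and Mr1 lie on chromosome 1, and without adult replicate 1 they changed by 2.57 and 2.42.

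Among the largest falls, Gng2, a G protein gamma subunit gene, stood at 1.91, 10.6, 7.18 and 6.46 CPM in adult against 75.7, 38.1, 52.7, 49.5 and 51.8 CPM in neonatal libraries (log2 fold change -3.03 ± 0.42, adjusted p = 8.95e-05). The groups were separated by a wide gap. Jph4, a junctophilin gene that links the plasma membrane to the endoplasmic reticulum (chromosome 14, 55106826 to 55116935), had the smallest adjusted p of the named genes, 9.56e-06, with a log2 fold change of -1.96 ± 0.21. It stood at 4.91, 6.79, 4.19 and 4.22 CPM in adult against 19.2, 14.8, 25.6, 20.9 and 17.5 CPM in neonatal libraries, and the spread within each age was narrow. Tgfb1i1, a focal adhesion gene, changed by -2.77 ± 0.43, Gng3, another gamma subunit gene, by -1.86 ± 0.41, the ephrin ligand gene Efnb3 by -1.56 ± 0.29 and the phospholipase gene Liph by -1.43 ± 0.26. Prom1, the CD133 gene of neural progenitors, changed by -1.62 ± 0.4, the homeodomain gene Hopx by -1.56 ± 0.33 and AW551984 by -2.02 ± 0.4. Six3, a forebrain homeobox gene, changed by -1.83 ± 0.37 and its antisense partner Six3os1 by -3.7 ± 0.67, and without a stated strand setting their reads cannot be told apart.

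**Figure D2:**
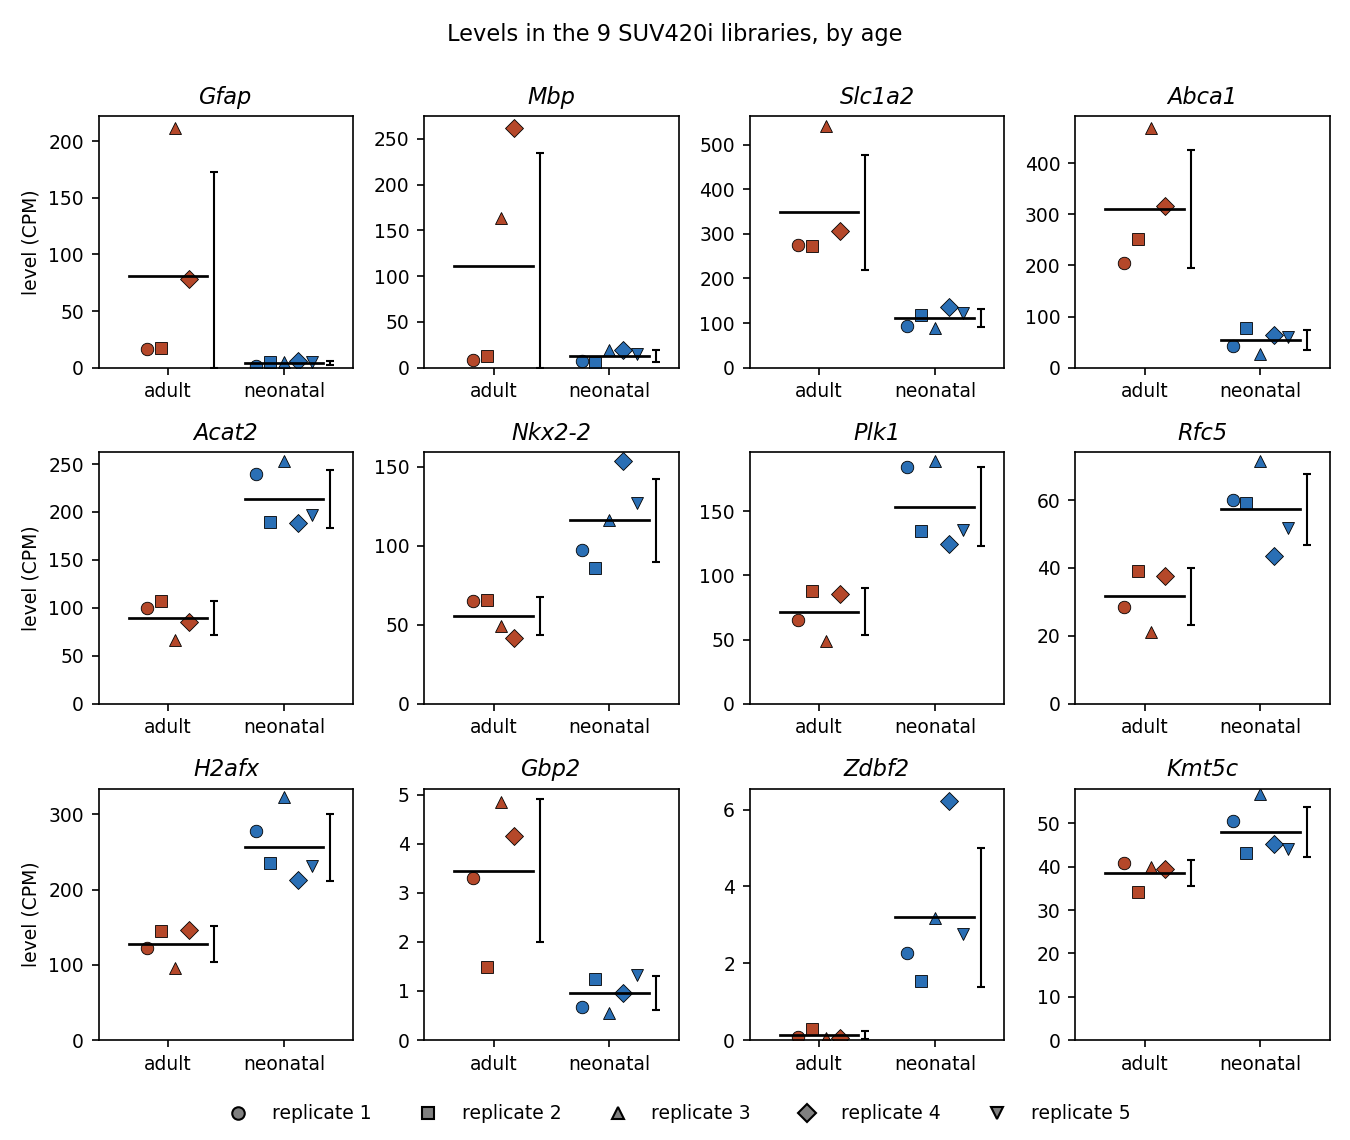
Levels of 12 genes in CPM (linear axes from 0) in each of the 4 adult (red) and 5 neonatal (blue) A-196 libraries, one symbol per replicate, with the mean as a line and the SD as a bar cut at 0. Gfap and Mbp are highest in adult replicates 3 and 4, whereas Slc1a2, Acat2 and H2afx separate the ages in every library.

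The H4K20 pathway was expressed at both ages. Kmt5b (chromosome 19, 3767421 to 3818303) stood at 99.2, 93.9, 108 and 102 CPM in adult against 88.8, 89.5, 60.3, 89.4 and 73.2 CPM in neonatal libraries. No adult library overlapped a neonatal one, but the difference of 0.33 ± 0.14 did not pass (adjusted p = 0.0723). Kmt5b was called without letters A and B, which are replicates 1 and 2 (0.5, adjusted p = 0.0267), and also with a stricter filter on low counts. Kmt5c (chromosome 7, 4740115 to 4747514) stood at 40.9, 34.2, 40 and 39.4 CPM in adult against 50.6, 43.2, 56.9, 45.2 and 44.1 CPM in neonatal libraries, lower in every adult culture. Its log2 fold change of -0.31 ± 0.11 was called (adjusted p = 0.0299), but leaving out any 1 of 5 libraries (adult replicates 2, 3 or 4, neonatal replicates 1 or 3) ended the call. Over the 9 fits without 1 library the value lay between -0.35 and -0.26.

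Kmt5a (chromosome 5, 124439930 to 124462308), which supplies the monomethylated substrate, stood at 71.6, 100, 57.6 and 80.8 CPM in adult against 123, 126, 123, 100 and 102 CPM in neonatal libraries. The highest adult library overlapped the lowest neonatal one. Its log2 fold change was -0.57 ± 0.15 (adjusted p = 0.00619), and -0.4 without adult replicate 3, where it was not called (adjusted p = 0.0683). Of the 15 listed writers, readers and erasers, 3 were lower and 1 higher in adult cells, 26.7% against 27.4% of all genes, with a median of -0.19. Without adult replicate 3, 1 was lower. The reader gene L3mbtl3 changed by 0.54 ± 0.12 and Trp53bp1, the 53BP1 gene, stood at 136 to 162 CPM in adult against 134 to 167 CPM in neonatal libraries (-0.05 ± 0.1, adjusted p = 0.736).

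Identity genes of OPCs were measured at both ages, and the receptors that define the stage were abundant. Pdgfra, the PDGF receptor alpha gene, stood at 1347, 348, 747 and 815 CPM in adult against 1087, 614, 1249, 1579 and 1490 CPM in neonatal libraries. The groups overlapped, replicate 2 was the lowest at both ages, and the difference did not pass (-0.56 ± 0.39, adjusted p = 0.284). Without letters A and B in any group, Pdgfra was called at -0.88 (adjusted p = 0.000246). Cspg4, which encodes the NG2 proteoglycan, stood at 510, 297, 293 and 173 CPM in adult against 732, 499, 584, 628 and 609 CPM in neonatal libraries. Only adult replicate 1 reached the neonatal range. Cspg4 was called (-0.94 ± 0.28, adjusted p = 0.0136), but not without adult replicate 3 or 4 (adjusted p of at most 0.0634).

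Nkx2-2, a homeodomain factor gene of the oligodendrocyte lineage, stood at 65.4, 66, 49.2 and 41.6 CPM in adult against 97.3, 85.8, 116, 153 and 127 CPM in neonatal libraries, without overlap (-1.06 ± 0.21, adjusted p = 0.000683). Cacng4, an AMPA receptor auxiliary subunit gene, changed by -0.89 ± 0.21, and Megf11, a transmembrane receptor gene, by 0.35 ± 0.1, which was not called without neonatal replicate 3 (adjusted p = 0.0542). In all, 6 of 25 OPC markers were lower and 2 higher (32% called, against 27.4% of all genes), with a median of -0.27. Without adult replicate 3 or 4 the lower count was 3 or 2, and without neonatal replicate 3 the higher count was 0. Cultures of 1 age also spread widely: Gpr17, a receptor of committed precursors, stood at 1325, 47, 754 and 315 CPM in adult against 341, 48.9, 1451, 2527 and 1874 CPM in neonatal libraries. Replicate 2 was again lowest at both ages, and the age difference did not pass (-1.03 ± 1.01, adjusted p = 0.471). Without letters A and B Gpr17 was called (-1.87, adjusted p = 0.0122). Of 19 tested genes of committed and newly formed oligodendrocytes 2 were lower and 0 higher (10.5% called, against 27.4% of all genes). Among the lower was Ctps, the CTP synthase gene (-0.65 ± 0.14). Hes5, a Notch target gene, did not pass (0.45 ± 0.69, adjusted p = 0.666).

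Of the 24 tested myelin and mature oligodendrocyte genes, 5 were higher in adult cells and 0 lower (20.8% called, against 27.4% of all genes). The higher count was 3 without adult replicate 3 or 4 or neonatal replicate 1 or 2. Adamts4, a protease gene of oligodendrocytes on chromosome 1, stood at 32.3, 26.8, 33.3 and 39.1 CPM in adult against 11.6, 16.1, 12.2, 13.1 and 14 CPM in neonatal libraries. It was higher in every adult culture, also in those with little Mbp (1.29 ± 0.17, adjusted p = 4.97e-05, and 1.3 without adult replicate 1). Mbp itself was called at 3.1 ± 1.06 (adjusted p = 0.03). That call was lost without adult replicate 3, adult replicate 4 or any of neonatal replicates 1, 2 and 3 (adjusted p up to 0.137), over the 9 fits without 1 library its value ran from 2.24 to 3.49, and without both adult replicates 3 and 4 the value was -0.26 (adjusted p = 0.846). Other called genes were scarce: Aspa, for aspartoacylase, lay between 0.485 and 1.82 CPM in adult libraries (1.72 ± 0.4), and Mog, a myelin surface protein gene, between 0.171 and 1.38 CPM (2.14 ± 0.5). Mog lay between 0.0906 and 0.271 CPM in neonatal libraries, so its ages overlapped.

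Genes characteristic of astrocytes were higher in adult cells in 15 of 20 cases and lower in 0, with a median of 1.03 against 0.03 over all genes. Slc1a2, the glutamate transporter GLT-1 gene, stood at 275, 273, 541 and 305 CPM in adult against 93, 118, 88.6, 136 and 122 CPM in neonatal libraries. Every adult culture was at least 2 times the highest neonatal one (1.64 ± 0.24, adjusted p = 0.000125). Gja1, the connexin 43 gene, changed by 1.49 ± 0.26, Mlc1, a membrane protein gene of astrocyte endfeet, by 1.08 ± 0.2, and Kcnj10, a potassium channel gene that OPCs and oligodendrocytes also use, by 1.11 ± 0.13. The summed level of the list ran from 6920 to 10800 CPM in adult and from 3670 to 5200 CPM in neonatal libraries, and whether it reflects other cells or the OPCs was not tested. Complement, acute phase and reactive glia genes were higher in 8 of 21 cases and lower in 0 (5 without neonatal replicate 3), with C1s1, a protease gene of the first complement component, at 1.31, 2.16, 3.92 and 2.48 CPM in adult against 0.36, 0.969, 0.211, 0.133 and 0.261 CPM in neonatal libraries (2.7 ± 0.53).

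Of 17 neuronal genes 2 were higher and 2 lower, shares below those over all genes (12.7% and 14.8%). The median was -0.09, with 8 genes above 0. Their summed level was 1290 to 1940 CPM in adult against 696 to 1130 CPM in neonatal libraries. Most of the adult sum was Map2, at 1490 CPM in replicate 1 and 1061 to 1084 CPM in the others. The neuronal markers Rbfox3 (2.26 to 8.36 against 2.77 to 7.29 CPM) and Snap25 (5.94 to 12.3 against 6.49 to 15 CPM) overlapped between the ages. Gad1, the gene of the GABA-synthesizing enzyme, stood at 6.52 to 14 CPM in adult against 1.13 to 3.88 CPM in neonatal libraries (2 ± 0.48), and Map2, a microtubule protein gene on chromosome 1, changed by 0.79 ± 0.19, or 0.66 without adult replicate 1. The neurofilament genes Nefl (-1.34 ± 0.26) and Nefm (-1.07 ± 0.21) were lower. Of the 6 tested microglial and macrophage genes 1 was higher and 0 lower, and only 2 were above 0, with a median of -0.46. Their summed level was 18.6 to 25.3 CPM in adult against 16 to 19 CPM in neonatal libraries. The endothelial list held 1 higher and 1 lower gene of 10 (20% called, against 27.4% of all genes). The lower gene was Egfl7, at 0.734 to 0.842 against 1.24 to 2.11 CPM.

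Cell cycle genes were lower in adult cells. Of 46 S phase genes, 34 were lower in adult cells and 0 higher, with a median of -0.79. Of 55 genes of G2 and M phase, 34 were lower and 0 higher, with a median of -0.69. Plk1, a mitotic kinase gene, stood at 65.3, 87.6, 49 and 85.1 CPM in adult against 184, 135, 189, 124 and 135 CPM in neonatal libraries. The groups did not overlap, and adult replicate 3 was lowest (-1.1 ± 0.2, adjusted p = 0.000436). Rfc5, a clamp loader subunit gene of the replication fork, stood at 28.6, 39.1, 21.2 and 37.5 CPM in adult against 60.1, 59.2, 71.5, 43.5 and 51.9 CPM in neonatal libraries. It showed the same separation, again with adult replicate 3 lowest (-0.85 ± 0.17, adjusted p = 0.000963).

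The other named members fell as well. In S phase they were the replication genes Gins4 (-0.54 ± 0.12), Rfc2 (-0.61 ± 0.13) and Orc6 (-0.67 ± 0.15). In mitosis they were the ubiquitin conjugase gene Ube2c (-1.06 ± 0.19), the cyclin-dependent kinase gene Cdk1 (-1.01 ± 0.19) and the checkpoint gene Bub3 (-0.56 ± 0.11). Mki67, the Ki-67 gene, stood at 429, 799, 352 and 752 CPM in adult against 1295, 1211, 511, 730 and 638 CPM in neonatal libraries. These ranges overlapped, and the difference did not pass (-0.59 ± 0.41, adjusted p = 0.301). Without adult replicate 3 the S phase count was 12 of 46 and the G2 and M phase count 21 of 55, with medians of -0.54 and -0.49.

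Replication genes are classic targets of E2F factors, so the promoters of the S phase list were searched for the words TTTCCCGC, TTTGGCGC, TTTCGCGC and TTTGCCGC on both strands. The window ran from 250 bases before to 50 bases after the start, in RefSeq's GRCm38.p6 promoters, taking the first start listed for a gene. A match was found in 15 of 37 S phase promoters (40.5%), against 3.81% of the 12408 promoters of tested genes. The share was 6.38% among genes called lower and 2.38% among genes called higher. Within the list, 9 of the 15 genes with a match and 19 of the 22 without were called lower. Shown are stretches before the start of 2 helicase subunit genes, with the matches in capitals. In both, matches on opposite strands overlap in 1 run. These genes were chosen after their values were seen, for their matches.

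Mcm5, chr8:75109316-75109403, plus strand: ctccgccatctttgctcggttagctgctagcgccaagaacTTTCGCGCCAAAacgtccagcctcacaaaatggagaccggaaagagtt

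Mcm6, chr1:128359768-128359855, minus strand: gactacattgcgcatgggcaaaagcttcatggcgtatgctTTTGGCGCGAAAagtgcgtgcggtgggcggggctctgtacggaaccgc

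Mcm5 stood at 92.2, 167, 61.9 and 128 CPM in adult against 252, 260, 251, 153 and 155 CPM in neonatal libraries (-0.93 ± 0.26, adjusted p = 0.00893). Adult replicate 2 lay above neonatal replicates 4 and 5, so the ranges overlapped. Mcm6 stood at 135, 207, 81.1 and 158 CPM in adult against 289, 310, 276, 213 and 224 CPM in neonatal libraries (-0.85 ± 0.24, adjusted p = 0.01), with all adult cultures below all neonatal ones. Neither was called without adult replicate 3, with an adjusted p of 0.0693 for Mcm5 and 0.079 for Mcm6.

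Taking both directions together, genes around cell cycle exit and DNA repair were called at shares not far from the 27.4% over all genes. Of 29 cell cycle inhibitors and p53 targets 4 were higher and 3 lower (24.1% called): the p53 target Trp53inp1 changed by 1.25 ± 0.29 and Trp53 itself by -0.56 ± 0.13. The inhibitor genes linked to senescence did not pass in the fit of all libraries. Cdkn1a, for p21, stood at 231, 419, 200 and 315 against 250, 354, 280, 187 and 207 CPM (adjusted p = 0.554), and Cdkn2a, for p16 and p19, at 65.7, 45.6, 45.9 and 45.9 against 43.3, 54.9, 37.2, 30.6 and 33.1 CPM (adjusted p = 0.205), though Cdkn2a was called without letters A and B (0.45, adjusted p = 0.0275). Both had overlapping ages. Of 36 DNA repair and 53BP1 pathway genes 8 were lower and 0 higher, with a median of -0.42 and 5 genes above 0. The calls were thus all in 1 direction, 22.2% lower against 14.8% lower and 12.7% higher over all genes. The lower count moved with single libraries: it was 4, 17 and 3 without adult replicates 1, 2 and 3, and 5 and 13 without neonatal replicates 1 and 4. H2afx, the H2A.X gene, stood at 123, 145, 96.3 and 146 CPM in adult against 278, 236, 323, 212 and 231 CPM in neonatal libraries, well apart (-1 ± 0.15, adjusted p = 0.000141). The end-joining gene Xrcc6 changed by -0.56 ± 0.11 and the poly(ADP-ribose) polymerase gene Parp1 by -0.63 ± 0.17, the last not called without adult replicate 3 (adjusted p = 0.0534).

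Cholesterol synthesis was lower in adult cells in 19 of 30 listed genes, with a median of -0.7. Acat2, which makes acetoacetyl-CoA for the pathway, stood at 99.5, 107, 66.6 and 84.8 CPM in adult against 239, 190, 253, 188 and 197 CPM in neonatal libraries, without overlap (-1.25 ± 0.18, adjusted p = 0.000119). Fdft1, for squalene synthase, changed by -1.07 ± 0.16, and Mvk, for mevalonate kinase, by -0.9 ± 0.14. The 1 listed gene that was higher does not make cholesterol but exports it: Abca1 stood at 205, 252, 469 and 317 CPM in adult against 43.3, 77.1, 25.9, 64.4 and 59 CPM in neonatal libraries (2.53 ± 0.42, adjusted p = 0.000232). Even the lowest adult culture was more than 2 times the highest neonatal one. The promoter window given above was also searched for the sterol response element, TCACNCCAC with N any base. It was found in 1 of 21 cholesterol list promoters (4.76%) and in 0 of 25 of the fatty acid and membrane lipid list. The share was 1.1% of all tested promoters, 0.48% among genes called lower and 1.51% among genes called higher.

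Fatty acid and membrane lipid genes split, with 4 of 29 higher and 7 lower (4 lower without adult replicate 3), 37.9% called against 27.4% of all genes. The citrate lyase gene Acly (-0.48 ± 0.1) and the acetyl-CoA synthetase gene Acss2 (-0.58 ± 0.12), which supply acetyl-CoA, were lower. Srebf1, the lipogenic transcription factor gene, stood at 286, 317, 345 and 290 CPM in adult against 192, 153, 203, 186 and 211 CPM in neonatal libraries, higher in each adult culture (0.71 ± 0.13). The glycerolipid genes Gpam (1.07 ± 0.2) and Gpd1 (1.73 ± 0.31) were higher too.

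Interferon response genes were higher in adult cells in 15 of 30 tested cases and lower in 0, with a median of 0.84. Most were expressed at low levels: the summed level was 204 to 260 CPM in adult against 163 to 180 CPM in neonatal libraries. Ifi27 stood at 13.2, 21.2, 24.5 and 28.9 CPM in adult against 6.13, 9.5, 5.04, 5.4 and 4.71 CPM in neonatal libraries (1.84 ± 0.27, adjusted p = 0.000105), with no overlap. Gbp7, an interferon-induced GTPase gene, stood at 10.8, 12.4, 13.2 and 17.2 against 4.79, 7.33, 3.99, 5.17 and 7.09 CPM (1.24 ± 0.25), and its relative Gbp2 at 3.31, 1.49, 4.85 and 4.16 against 0.669, 1.24, 0.544, 0.967 and 1.34 CPM (1.86 ± 0.38). Trim30a was near the limit of counting in neonatal cells, at 0 to 0.194 CPM, and at 0.599 to 1.01 CPM in adult cells (3.55 ± 0.73, adjusted p = 0.000973).

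The same promoter window was searched on both strands for GAAA, any 2 bases and GAAA again, the core of the element bound by interferon-activated factors. It was found in 14 of 22 interferon list promoters (63.6%), against 2.85% of all tested promoters, 4.23% of those of genes called higher and 2.16% of those called lower. Of the 14 genes with a match 9 were called higher, and of the 8 without 3 were. Stretches of 2 named members are shown, with the match, here on the opposite strand, in capitals.

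Gbp7, chr3:142530243-142530332, plus strand: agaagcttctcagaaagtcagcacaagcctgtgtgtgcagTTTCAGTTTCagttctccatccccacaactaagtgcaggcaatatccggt

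Trim30a, chr7:104465194-104465269, minus strand: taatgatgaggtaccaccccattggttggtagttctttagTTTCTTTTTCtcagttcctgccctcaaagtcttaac

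Antigen presentation genes were higher in 5 of 18 cases and lower in 1 (33.3% called, against 27.4% of all genes). The higher count was 3 without adult replicate 3 and 2 without neonatal replicate 3. B2m, the class I light chain gene, stood at 50.5, 74.9, 76.1 and 62.5 CPM in adult against 49.4, 50.8, 44, 43.3 and 53.9 CPM in neonatal libraries. Adult replicate 1 lay within the neonatal range, and the call (0.45 ± 0.14, adjusted p = 0.0206) was lost without adult replicate 2 or 3 or neonatal replicate 3 (adjusted p up to 0.0678). H2-T23, a non-classical class I gene, changed by 1.36 ± 0.36. The classical class I gene H2-D1 was lower (-0.49 ± 0.17, adjusted p = 0.0357), a call lost without any 1 of 5 libraries (adult replicates 1 or 4, neonatal replicates 3, 4 or 5), with adjusted p up to 0.139.

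Chromatin regulators were mostly lower where they were called. Of 30 heterochromatin and Polycomb genes 9 were lower and 1 higher (33.3% called, against 27.4% of all genes), with a median of -0.13. Suv39h1, an H3K9 methyltransferase gene, stood at 51.5, 66, 47.3 and 59.2 CPM in adult against 99.2, 92.6, 110, 84.1 and 81.8 CPM in neonatal libraries, without overlap (-0.74 ± 0.12, adjusted p = 0.000156). The corepressor gene Trim28 changed by -0.64 ± 0.13, the Polycomb gene Phc1 by -0.43 ± 0.09 and the histone chaperone gene Daxx by -0.47 ± 0.1. Bmi1, the Polycomb gene that was higher, changed by 0.67 ± 0.22 and was not called without neonatal replicate 3 (0.51, adjusted p = 0.087). Among 28 acetyltransferases and deacetylases 7 were lower (3 without adult replicate 3) and 2 higher (5 and 4 without adult replicate 1 and neonatal replicate 4), 32.1% called. They included Kat7 (-0.45 ± 0.07) and Kat2a (-0.68 ± 0.12) against Kat2b (0.62 ± 0.11) and Hdac4 (0.52 ± 0.11, on chromosome 1, 0.44 without adult replicate 1). Of 14 DNA methylation genes 3 were lower and 0 higher, such as Mbd3 (-0.53 ± 0.12), against 14.8% lower over all genes. Without adult replicate 3 only 1 was lower, and without adult replicate 1 or neonatal replicate 4, 2 were higher. Of 49 histone genes 33 were not called, 10 were higher, such as the linker histone gene Hist1h1c (0.75 ± 0.14), Hist1h3d (1.55 ± 0.3) and Hist1h4k (1.58 ± 0.31), and 6 lower, such as the variant gene H2afy (-0.55 ± 0.11). Many histone genes are near-identical copies, so single members are uncertain.

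Imprinted genes held some of the steepest falls. Zdbf2 stood at 0.0856, 0.281, 0.0598 and 0.0612 CPM in adult against 2.27, 1.55, 3.17, 6.24 and 2.76 CPM in neonatal libraries (-4.65 ± 0.69, adjusted p = 0.00012). It was near silent in every adult culture. Magel2 was at 0 in 3 adult libraries and 0.0299 CPM in the other, against 0.31 to 1.45 CPM in neonatal ones, so no fold is given. Its neighbour Ndn, for necdin, stood at 28.9, 46.6, 33.8 and 33.7 CPM in adult against 87.3, 55.9, 130, 107 and 76 CPM in neonatal libraries (-1.35 ± 0.23), again without overlap. The non-coding Rian changed by -1.24 ± 0.23. In all, 9 of 34 imprinted genes were lower and 3 higher (5 without neonatal replicate 2), with a median of -0.33. The share called was 35.3%, against 27.4% of all genes.

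Regional transcription factors were called in 21 of 37 tested cases (56.8%, against 27.4% of all genes), 14 higher and 7 lower, with a median of 0.71. The other 15 of the 52 listed genes did not pass the filter on low counts. A gene near 0 at one age can pass that filter through the other age, so the count and the median depend on it. Tfap2a, a neural crest and surface ectoderm factor gene, stood at 5.34, 0.645, 2.24 and 5.11 CPM in adult against 0.129, 0.31, 0.0604, 0.0333 and 0.0871 CPM in neonatal libraries (4.76 ± 0.69, adjusted p = 0.000105). It was almost absent from every neonatal culture. The paired-box gene Pax9 (3.53 ± 0.53) and the LIM homeobox gene Isl2 (2.93 ± 0.58) were likewise low in neonatal cells, at 0.0581 to 0.737 and 0.151 to 1.28 CPM. Gsx1, a homeobox gene of the ventral telencephalon, was lower in adult cells (-0.92 ± 0.17).

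Signalling genes were more often called higher than lower in adult cells, but the shares called were near the 27.4% over all genes. Of 41 growth factor receptors and ligands 11 were higher (7 without adult replicate 3) and 1 lower (29.3% called). Igfbp5, which encodes an IGF-binding protein (chromosome 1), stood at 224, 93.1, 331 and 177 CPM in adult against 36.5, 42.4, 50.9, 67.1 and 72 CPM in neonatal libraries, with no overlap (1.94 ± 0.29, and 1.9 without adult replicate 1). The TAM receptor gene Axl changed by 1.07 ± 0.23. The neuregulin receptor gene Erbb4, also on chromosome 1, changed by 1.14 ± 0.27, by 0.98 without adult replicate 1 and by 0.97 without neonatal replicate 3, and was not called without letters A and B (0.99, adjusted p = 0.0569). In the Notch pathway 5 of 22 genes were higher and 2 lower (31.8% called). Notch2 stood at 92.3, 97.1, 125 and 102 CPM in adult against 31.1, 48.9, 39.6, 53.1 and 55.1 CPM in neonatal libraries (1.19 ± 0.22), Notch1 changed by 0.66 ± 0.15, Notch3 by 0.93 ± 0.21 and the transcriptional regulator gene Hes6 by 0.54 ± 0.14. Thus 3 receptors were higher. The target Hes5 did not pass, but neonatal replicate 2 held 3.45 CPM of it against 30.2 to 35.2 CPM in the other neonatal libraries, so its test says little.

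Of 39 Wnt and BMP genes 9 were higher and 3 lower (1 without adult replicate 3), 30.8% called against 27.4% of all genes. Bmpr1b, a type I BMP receptor gene, stood at 25.9, 40.2, 61.3 and 44 CPM in adult against 7.67, 11.1, 8.97, 15.8 and 16.5 CPM in neonatal libraries, well apart (1.84 ± 0.31, adjusted p = 0.000249). The Wnt feedback genes Axin2 (0.61 ± 0.13) and Znrf3 (0.72 ± 0.17) and the secreted antagonist gene Wif1 (1.83 ± 0.37) were higher, and the receptor gene Fzd1 lower (-0.65 ± 0.16). Extracellular matrix and integrin genes were higher in 13 of 48 cases and lower in 2 (31.2% called). They included the laminin genes Lamc1 (0.65 ± 0.12, on chromosome 1, 0.58 without adult replicate 1) and Lamb2 (0.97 ± 0.23), the nidogen gene Nid2 (0.99 ± 0.24) and Itgb8, an integrin gene needed to activate TGF-beta, which stood at 328, 266, 377 and 407 CPM in adult against 102, 115, 42.3, 125 and 159 CPM in neonatal libraries (1.66 ± 0.37). Neonatal replicate 3 was the lowest for Itgb8, and without it the value was 1.45.

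Channels and receptors for transmitters were called in 17.3% of 52 cases, below the 27.4% over all genes, 8 higher and 1 lower, with 5 higher without adult replicate 3, adult replicate 4 or neonatal replicate 3, and 4 lower without adult replicate 1. The GABA receptor subunit gene Gabrb1 changed by 2.18 ± 0.53, the NMDA receptor subunit gene Grin2a by 1.89 ± 0.52 and the calcium channel subunit gene Cacna2d3 by 1.4 ± 0.32. Of 47 G protein signalling genes 10 were higher and 4 lower (29.8% called). The higher count was 4, 5 and 6 without adult replicate 3, neonatal replicate 3 and neonatal replicate 4, and the lower count 2 without adult replicate 3. The endothelin receptor genes Ednra (1.02 ± 0.2) and Ednrb (0.97 ± 0.26, not called without adult replicate 3, adjusted p = 0.0538) were higher, as was Gpr37l1, a glial receptor gene on chromosome 1 (1.1 ± 0.21, 1.04 without adult replicate 1), and the sphingosine 1-phosphate receptor gene S1pr2 was lower (-0.62 ± 0.15).

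Glutathione, detoxification and metal handling genes were higher in 15 of 32 cases (9 without adult replicate 3) and lower in 1 (3 without adult replicate 2). Mgst1, a membrane glutathione transferase gene, stood at 59.8, 56.6, 85.1 and 64.1 CPM in adult against 15.5, 25.2, 20.1, 23.4 and 24.8 CPM in neonatal libraries, more than 2 times higher in every pair of libraries (1.61 ± 0.2, adjusted p = 3.13e-05). Gstt1 (1.18 ± 0.2) and Gstm1 (1.35 ± 0.26), of the same enzyme family, and the cytochrome gene Cyp4f14 (3.18 ± 0.58) were higher. Gpx3, the secreted glutathione peroxidase gene, was lower (-1.35 ± 0.3). Stress and unfolded protein response genes were lower in 9 of 29 cases and higher in 2: the serine pathway gene Shmt2 (-0.9 ± 0.13), the asparagine synthetase gene Asns (-0.86 ± 0.18) and the ER chaperone gene Hspa5 (-0.45 ± 0.1) were lower and the co-chaperone gene Dnajb9 higher (0.86 ± 0.17). Glycolysis and hypoxia genes split 6 higher and 5 lower of 30 (36.7% called, against 27.4% of all genes). These counts came to 3 and 2 without adult replicate 3 or 4, to 3 and 3 without neonatal replicate 1, and to 2 lower without neonatal replicate 3. The list had the hexokinase gene Hk2 lower (-0.97 ± 0.19), the kinase gene Pdk1 higher (0.72 ± 0.2) and the aldolase gene Aldoc higher (0.97 ± 0.31) but not called without adult replicate 1 or 3 (adjusted p up to 0.0854). Immediate early genes were higher in 2 and lower in 2 of 24 cases (16.7% called, and 0 lower without adult replicate 3). Nr4a1 was among the lower (-0.74 ± 0.22, not called without adult replicate 3, adjusted p = 0.0761).

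Nuclear genes of oxidative phosphorylation were lower in 21 of 39 cases and higher in 0, with a median of -0.36. Ndufb8, a subunit gene of complex I, stood at 68.2, 72.4, 56.3 and 61.3 CPM in adult against 91.9, 84, 121, 91.5 and 98.2 CPM in neonatal libraries, without overlap (-0.59 ± 0.12, adjusted p = 0.00117). Ndufs4 (-0.46 ± 0.1), Ndufa5 (-0.69 ± 0.16) and Ndufs8 (-0.57 ± 0.14), of the same complex, were lower. Neonatal replicate 3 was the highest library for Ndufb8, and without it 11 of the 39 genes were called lower with a median of -0.28. Without adult replicate 3, 6 were called, without adult replicate 4, 11, and in a fit of the 9 libraries alone, 13. Zinc finger genes with Zfp symbols moved the other way, 69 of 364 higher and 24 lower (25.5% called, against 27.4% of all genes). Without neonatal replicate 3, however, the counts were 19 and 16. They were 39 and 10 without adult replicate 3 and 43 and 11 without adult replicate 4. The lower count was 15 without neonatal replicate 1 and 13 in the fit of the 9 libraries alone. Members called in each of these fits were Zfp703 (0.68 ± 0.15) and Zfp618 (-1.05 ± 0.21).

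Called genes differed in transcript length over the whole table. Genes called higher had a median exon length of 5.01 kb, genes called lower 3.11 kb and other genes 3.46 kb. Over 4 equal classes of genes from short to long exon length, the share called higher rose from 6.6% to 20.5% and the share called lower went from 16.6% to 9.1%, and the median log2 fold change from -0.06 to 0.14. Neonatal replicate 3 had the largest imbalance of the 9 libraries: its shortest class of genes lay 0.44 above its longest class on the log2 scale, each relative to the mean of the other neonatal libraries, whereas the other 8 lay between -0.22 and 0.1. Among the DMSO libraries adult replicate 1 stood apart in the same direction, at 0.43. The part of this imbalance in the length pattern was not tested.

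**Figure D3:**
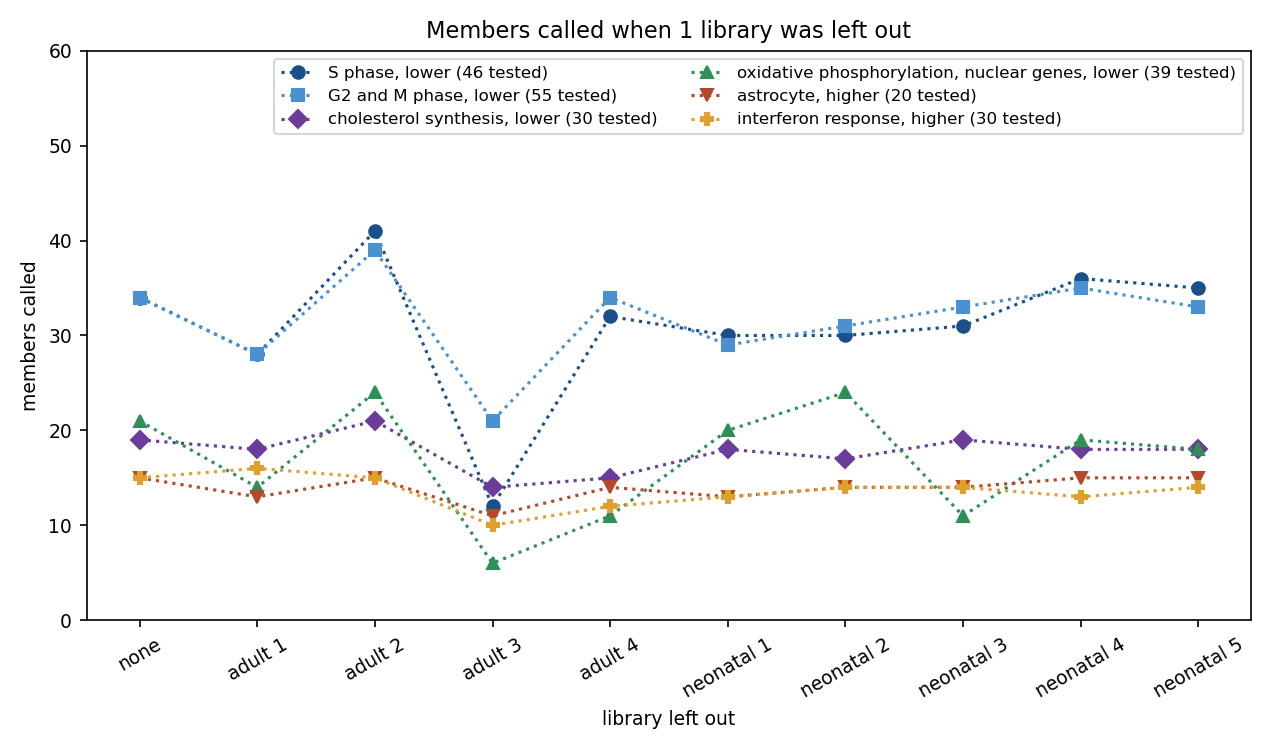
Number of members called in the stated direction (vertical axis, linear from 0) in 6 lists when no library or 1 of the 9 A-196 libraries was left out (horizontal axis). Leaving out adult replicate 3 lowers the S phase count from 34 to 12, while the astrocyte count stays between 11 and 15.

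Chromosome 1 gave more genes that were higher than any other chromosome, 267 of 1305, against 58 lower. Adult replicate 1 stood apart on this chromosome. Over protein-coding genes above 1 CPM, the median deviation of chromosome 1 genes from their median over the 32 libraries was 0.33 on the log2 scale in adult replicate 1, and between 0.01 and 0.07 in the other adult A-196 libraries. The same letter gave values of 0.26 to 0.34 over the 3 adult treatments that include it, while the other 29 libraries of the series lay between -0.16 and 0.07. The raised level was present in each of 10 segments of equal gene number along the chromosome, at 0.25 to 0.41. No other chromosome of adult replicate 1 deviated by more than 0.04 in either direction. Without adult replicate 1, chromosome 1 still counted 219 higher and 92 lower of 1298 genes, with a median of 0.15 against 0.02 on the other chromosomes, and without neonatal replicate 3 it counted 183 higher and 46 lower. The cause was not tested.

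**Figure D4:**
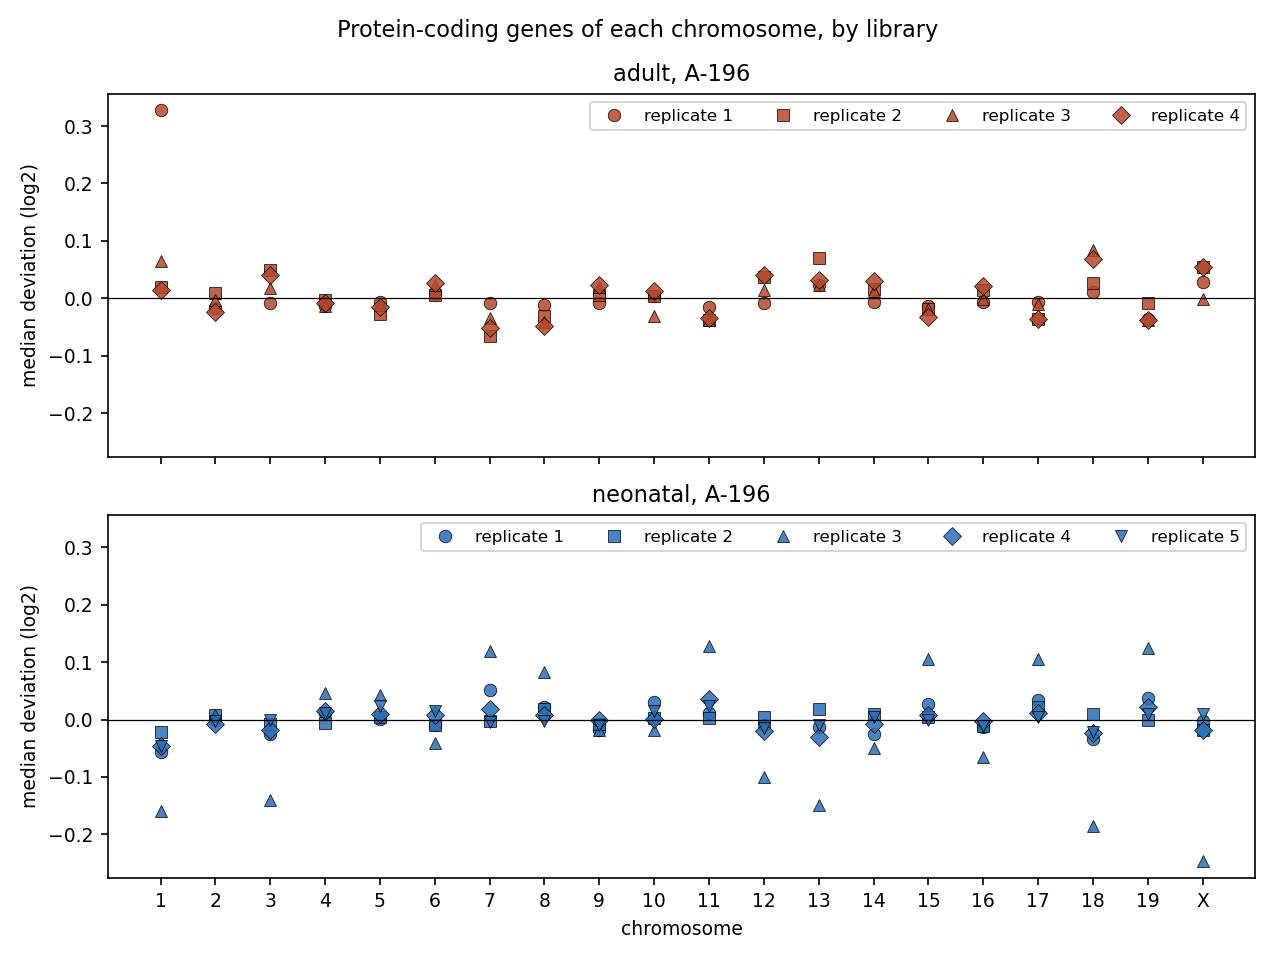
Median deviation of protein-coding genes of each chromosome from their median over all 32 libraries (log2 scale), for each adult (upper panel) and neonatal (lower panel) A-196 library. Chromosome 1 of adult replicate 1 lies at 0.33, and neonatal replicate 3 spreads most among the neonatal libraries.

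The age difference under A-196 was then set beside that in vehicle. In DMSO 2584 genes were called (12.8%), 6.54% of the tested genes higher and 6.22% lower, of which 2180 were also called under A-196, all in the same direction. These were 84.4% of the calls in DMSO and 39.2% of those under A-196. Of the 3380 genes called only under A-196, 3310 had the same sign in DMSO. The comparisons share no library, but the letters A to E of the labels recur in each. Median absolute fold changes over all genes were 0.36 under A-196 and 0.28 in DMSO on the log2 scale, with median standard errors of 0.22 in both. The age difference with KATi gave 5041 calls (24.9%), 10.5% higher and 14.3% lower, with 3989 of them shared with A-196 and all in the same direction. In untreated cultures 524 genes were called (2.59%), 1.54% higher and 1.05% lower, and of the 148 shared with A-196, 65 had the same and 83 the opposite direction. The untreated comparison held only 2 adult and 3 neonatal libraries, and its median standard error was 0.3.

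When the difference itself was tested, as the age difference under A-196 minus that in DMSO, edgeR called 0 of 20259 genes (0%), with 486 at an unadjusted p under 0.05 and a smallest adjusted p of 1, and DESeq2 called 0 as well, with 675 at an unadjusted p under 0.05. The median standard error of this difference was 0.31 on the log2 scale, which limits what could be detected. The test did not pair libraries by letter. In deviations from group means, same-letter A-196 and DMSO libraries correlated at 0.521, 0.656, 0.492 and 0.405 for adult letters A to D. For neonatal letters A to E the values were 0.281, 0.619, -0.104, 0.293 and 0.099. With a block for each letter of each age, edgeR gave 1390 of 18878 genes an unadjusted p under 0.05 and called 0. Counts of called members are given side by side, and differences that involve KATi were not tested. Oxidative phosphorylation genes had 21 calls under A-196, 0 in DMSO and 13 with KATi, with medians of -0.36, -0.08 and -0.3. Zfp genes had 69 higher under A-196, 9 in DMSO and 77 with KATi. For oxidative phosphorylation and Zfp genes, the A-196 counts were smaller without neonatal replicate 3, as given above. That library and adult DMSO replicate 1 had short transcripts raised over long ones, by 0.44 and 0.43 on the log2 scale. These libraries are of opposite age, and their part in the counts was not tested. S phase genes had 34, 20 and 32 lower, and the cholesterol list 19, 21 and 21 lower. Astrocyte genes had 15, 13 and 12 higher. Single genes, chosen here after their values were seen, ranged from near equal to well apart: Gfap changed by 4.2 under A-196 and by 4 in DMSO, Gng2 by -3.03 and -3.02, Abca1 by 2.53 and 1.92, Bmpr1b by 1.84 and 1.42, Itgb8 by 1.66 and 0.84, and Hist1h4k by 1.58 and 0.43. None of these differences passed.

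**Figure D5:**
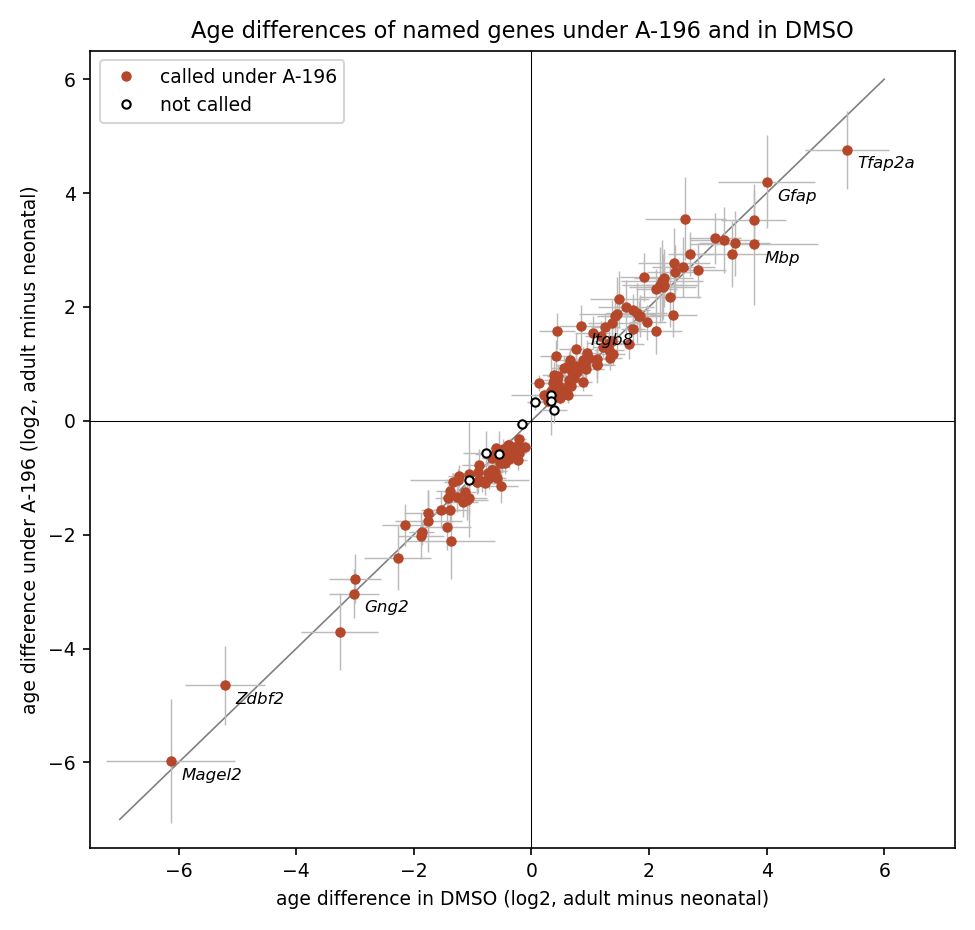
Age difference of the 176 genes named by the rule under A-196 (vertical axis) against that in DMSO (horizontal axis), log2 fold change of adult minus neonatal with SE bars and the line of equality. The points follow the line, with Zdbf2 and Magel2 at the lower end and Tfap2a and Gfap at the upper end.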

How the data were processed

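RNA of 32 cultures was measured by RNA sequencing, and the values used here are the whole-number read counts per gene that the authors deposited for 56980 identifiers, not normalized. Builds and tools named in the submitters' processing notes, without roles, are mm10, featureCounts, Subread, CASAVA 1.8.2 and DESeq2. For the annotation release and the strand setting, the sources used here give nothing. Symbols and coordinates came from GENCODE vM21 (GRCm38) and matched 52073 identifiers, and the other 4907 held 2.37% of the counts. The filterByExpr function (minimum count 10) kept 20259 genes. Libraries were scaled by TMM and all 32 entered 1 edgeR 4.0.16 quasi-likelihood fit (R 4.3.3) with 8 groups and no block. Adjusted p-values come from edgeR's quasi-likelihood test, with Benjamini-Hochberg adjustment over all 20259 genes. Values after ± are SE for log2 fold changes. Levels are CPM on TMM-scaled libraries and are not comparable between genes of different length.

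The members and the 37 gene lists were chosen with earlier results of these data known. The naming rule took the 12 largest rises and the 12 largest falls whose ages did not overlap, among those called and averaging 2 or more in log2 CPM (leaving out predicted, mitochondrial and ribosomal protein genes), the called member of each list with the smallest adjusted p in each direction, up to 3 more where over 3 were called, called genes of the difference of age differences, and a few fixed genes. It gave 176 genes, and not all are reported here. The script was tested on simulated data. Alternatives were DESeq2 1.42.0, RLE factors, no filter and a stricter filter, only the A-196 libraries, the replicate block, and leaving out libraries or letters. Replicates 1 to 5 are letters A to E. The extraction protocol in the labels calls the replicates biological without saying what was replicated, so the p-values reflect only how much these samples vary, which may be technical. No pair of A-196 libraries of an age agreed within counting noise (chi-square per degree of freedom of at least 23.45).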

Additional observations from a re-analysis of the deposited data

Results flagged for a closer look

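Within each age, 20 of 294 groups of values (147 genes, 2 ages) had 1 library far from the others, by the gap to the nearest library as a share of the whole range. Chance gives about 1 in 20 such groups. In the 4 adult libraries, replicate 1 was high for AW551984 (5.42 CPM, share 0.938), Cacng4 (330 CPM, 0.8292), Cdkn2a (65.7 CPM, 0.987) and Map2 (1490 CPM, 0.946). Adult replicate 2 was high for Zdbf2 (0.883), and adult replicate 3 for Slc1a2 (0.878) and Magel2 (1.0, a single library above 0).

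In the 5 neonatal libraries, replicate 2 was high for Sp9 (0.713), Sulf1 (0.766), Gbp9 (0.747), C1s1 (0.728), Isl2 (0.814), Cacna2d3 (0.77) and Grin2a (0.797). It was low for AW551984 (0.772) and for Hes5, with 3.45 CPM against 30.2 to 35.2 CPM in the others (0.844). Neonatal replicate 3 was high for Trim28 (0.728), Axin2 (0.791) and Ndufa5 (0.75), and neonatal replicate 1 for Six3 (0.801).

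The median deviation of chromosome 1 genes was high in adult replicate 1, at 0.33 against 0.01 to 0.07 in the other adult libraries on the log2 scale (share 0.838). It was low in neonatal replicate 3, at -0.16 against -0.06 to -0.02 (share 0.752).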

How the results depend on the processing

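The count of 5560 called genes stayed within 1.5 times under DESeq2 (6035), RLE factors (5566), no filter (4417), a stricter filter (5595), a fit of the 9 libraries alone (4695), and without letters A and B (6671). It moved further with the replicate block (3661, of which 55.4% were higher against 46.2%), without letters C, D and E (4 genes), and, in an alternative added after seeing the data, without adult letters C and D (733 genes). Without 1 library it ran from 3279 (adult replicate 3) to 5535. The cause was not tested, though leaving out letters also leaves fewer libraries. Same-letter libraries of the 2 ages correlated at -0.05, 0.24, 0.04 and 0.05 in their deviations, and only adult letter B correlated best with its own letter. With the replicate block, lower oxidative phosphorylation genes came to 5 of 39, lower Zfp genes to 7 and higher interferon response genes to 8. Of 139 called genes named here, 125 kept the call without any 1 library, 14 lost it in at least 1 such fit, and 7 lost it with the replicate block. All 139 lost it without letters C, D and E. Mbp turned to -0.26 without adult letters C and D. The difference of age differences gave 0 calls in each alternative, with 165 to 1390 genes at an unadjusted p under 0.05.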
